A study of Mus musculus with 20 samples.

Results

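Gene expression in wild-type striatum was compared with that in wild-type hippocampus, using 10 of the 20 libraries of a mouse study of Helios, an Ikaros-family DNA-binding factor made from the gene Ikzf2. The members are all libraries whose title reads wild type, 5 of striatum and 5 of hippocampus. The mice were of the strain C57BL/6, and the labels state no treatment, age, sex or identity of the animals. The other 10 libraries, 5 per tissue, are labelled Helios -/-, and are used below only to ask whether a tissue difference recurs. Values are RPKM, read counts scaled by gene length and library size, whose lost decimal marks were restored as described at the end. A difference is the mean of log2(RPKM + 1) in striatum minus that in hippocampus, so positive values mean higher in striatum.

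Striatum and hippocampus are both forebrain tissues, but they arise from different parts of the embryonic telencephalon. The striatum comes from the subpallium, whose progenitors use homeobox factors of the Dlx and Gsx families, and most of its neurons are GABAergic spiny projection neurons. The hippocampus comes from the medial pallium, next to the cortical hem, a source of Wnt signals, and its principal neurons are glutamatergic. Striatal spiny neurons fall into a direct-pathway class with the dopamine receptor Drd1 and an indirect-pathway class with Drd2.

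Recovered reads came to between 27277819 and 36882305 per striatal library and between 23194968 and 29029149 per hippocampal library. In striatum replicates 1, 3 and 5 they exceeded the library size implied by the RPKM values. Replicate 5 had 30467181 recovered reads against an implied size of 28865858. The part of misplaced decimal marks in this excess was not tested. The first principal component separated the tissues and held 71% of the variance. The second held 12.8% and set striatum replicate 4, at -38.0, apart from the other 9 libraries, which lay between -2.10 and 11.0. The library labelled hippocampus wild type replicate 6 went against its label: Ikzf2 stood at 0.782 RPKM there, against 1.32 to 1.61 in the other 4 hippocampal libraries labelled wild type. Each library carries a code of 2 numbers. This one shares its code with a striatal library labelled Helios -/-, and the striatal library labelled wild type replicate 5 shares its code with a hippocampal library labelled Helios -/-. Where replicate 4 or 5 of striatum or replicate 6 of hippocampus stood apart for a gene described below, its values are given. For several such genes the difference is also given without that library.

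Genes were tested if they reached 0.5 RPKM in at least 5 of the 10 libraries and had no unsure decimal mark. A gene under 0.5 RPKM in every library of one tissue could pass only through the other tissue. Its groups of libraries then could not overlap. Of 15029 genes tested, 6597 (43.9%) were called at an adjusted p below 0.05 (limma, Benjamini-Hochberg), 3132 higher in striatum (20.8%) and 3465 higher in hippocampus (23.1%). Most differences were small, with a median size of 0.38 over the called genes. A difference of at least 1 was found for 770 called genes (5.12%), 366 higher in striatum (2.44%) and 404 higher in hippocampus (2.69%), and the 2 groups of libraries did not overlap for 733 of them. Over all tested genes the groups did not overlap for 30.8%, and the median difference was -0.0036. The shares of 20.8% and 23.1% of all genes are the background for every list count below. Without striatum replicate 4 the calls numbered 8149 and those of at least 1 numbered 851. Without hippocampus replicate 6 they numbered 5901 and 766, and without striatum replicate 5 they numbered 6206 and 780.

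**Figure D1:**
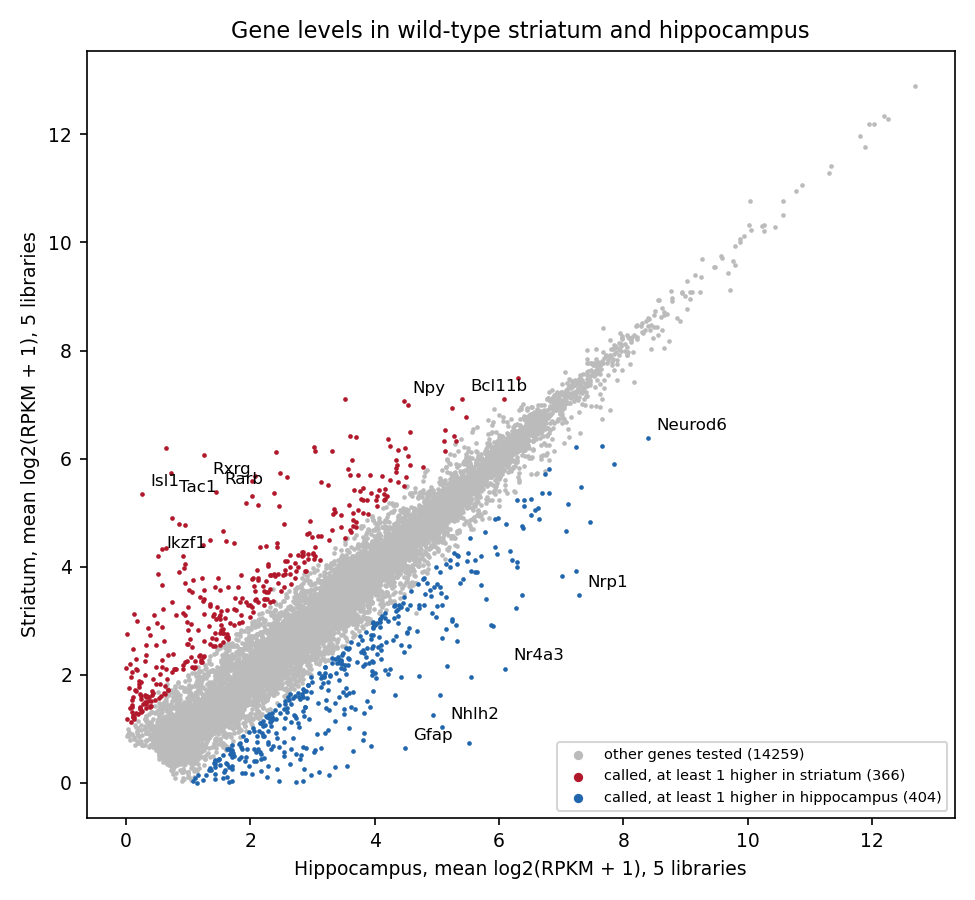
Mean log2(RPKM + 1) of each of the 15029 tested genes in hippocampus (horizontal axis) and striatum (vertical axis), 5 wild-type libraries each. Red and blue points are the 366 and 404 called genes with a difference of at least 1; most genes lie along the diagonal.

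The largest differences toward striatum belonged to genes of spiny projection neurons and of the striatal lineage. Isl1, a LIM homeobox factor of the direct-pathway lineage on chromosome 13 (116298270 to 116309688, GRCm38), was at 49.7, 48.0, 45.3, 27.5 and 33.1 RPKM in striatum replicates 1 to 5. The first 4 hippocampal libraries lay between 0.0339 and 0.0711 RPKM, while replicate 6 held 1.05 RPKM. The tissues did not overlap, and the difference was 5.08 (SE 0.22, adjusted p = 2.58e-08, limma), or 5.27 without hippocampus replicate 6. Tac1, the precursor of substance P, a peptide of direct-pathway neurons, averaged 52.9 ± 8.93 RPKM in striatum and 0.683 ± 0.422 RPKM in hippocampus (SD, n = 5 each), a difference of 5.02. Drd2, the dopamine receptor of the indirect pathway, ran from 15.2 to 25.4 RPKM in striatum and from 0.303 to 1.42 RPKM in hippocampus, a difference of 3.71, or 3.86 without hippocampus replicate 6. Other genes among those with the largest differences toward striatum were Rxrg, Foxp2, Rarb, Ebf1, Dlx6 and Six3, all transcription factors, with differences from 3.75 to 4.81. Groups that do not overlap were a condition for this choice of genes.

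The largest differences toward hippocampus were of a mixed kind. Nhlh2, a basic helix-loop-helix factor of newborn neurons on chromosome 3 (102010111 to 102015492), was at 43.3, 30.6, 30.9, 27.8 and 34.7 RPKM in hippocampus and at 1.09, 0.740, 1.23, 0.708 and 1.57 RPKM in striatum. No library of one tissue came near the other, and the difference was -4.06 (SE 0.14, adjusted p = 6.23e-09, limma). Gfap, the intermediate filament of astrocytes and hippocampal stem cells, was at 18 to 24 RPKM in hippocampus and at 0.50 to 0.640 RPKM in striatum, with a difference of -3.84 (SE 0.08, adjusted p = 2.51e-10, limma). Both groups were tight, and no smaller adjusted p was found among the genes with the largest differences. Nrp1, a receptor for class 3 semaphorins, averaged 155 ± 10.99 RPKM in hippocampus and 10.4 ± 3.03 RPKM in striatum (SD, n = 5), where replicate 4 held the highest value, 15.7 RPKM. Its difference was -3.81, or -3.96 without that replicate.

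The nuclear receptor Nr4a3 averaged 67.5 ± 5.07 RPKM in hippocampus and 3.49 ± 1.3 RPKM in striatum, a difference of -3.98. Hopx, a homeodomain-only protein of radial glia and of hippocampal stem cells, was at 1.93 to 2.54 RPKM in 4 striatal libraries, 8.69 RPKM in striatum replicate 4 and 39.4 to 52.1 RPKM in hippocampus. Its difference was -3.58, and -3.91 without replicate 4. Grp, the precursor of gastrin-releasing peptide, was at 0.851 to 1.93 RPKM in 4 striatal libraries and 12.4 RPKM in replicate 5, against 28.5 to 39.8 RPKM in hippocampus. Its difference was -3.43, or -3.95 without replicate 5. Ttr, the carrier of thyroid hormone made by choroid plexus, was at 32.4 to 83.5 RPKM in hippocampus and at 0.0891 to 2.67 RPKM in striatum, highest in replicate 4. Its difference was -4.78, or -5.06 without that replicate. The other 3, with differences from -3.69 to -3.27, were Thrsp, Crym, which encodes a thyroid hormone-binding protein, and Fam163a.

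**Figure D2:**
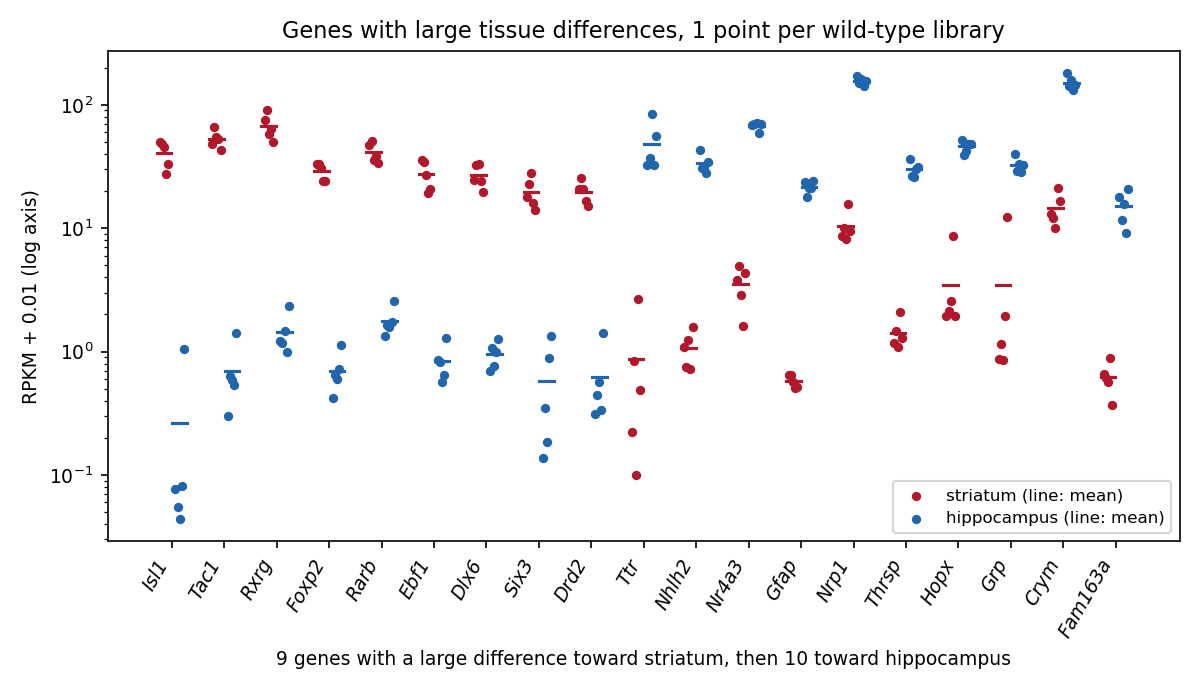
RPKM + 0.01 on a log axis for 9 genes with large differences toward striatum and 10 toward hippocampus, 1 point per wild-type library and a line at each mean. Genes were chosen among those whose groups do not overlap; hippocampus replicate 6 supplies the highest hippocampal point of all 9 genes higher in striatum.

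Among abundant genes with a difference of at least 1, the 5 with the highest striatal mean were Meg3, mt-Rnr2, Gucy1a1, Bcl11b and Npy. Gucy1a1, a subunit of the nitric oxide receptor soluble guanylate cyclase, averaged 138 ± 29.0 RPKM in striatum and 10.6 ± 1.61 RPKM in hippocampus (SD, n = 5), a difference of 3.57. Bcl11b, the factor also called Ctip2, averaged 137 ± 21.7 against 42.1 ± 7.25 RPKM. The power of 10 of mt-Rnr2, a mitochondrial ribosomal RNA, was unsure in all libraries together, so its place among these 5 is unsure. In the fit of all 20 libraries mt-Rnr2 lost its call (adjusted p = 0.0756, limma). The 5 with the highest hippocampal mean were Neurod6, Tcf4, Vim, Nfix and Nfib. Nfib, a nuclear factor I protein, averaged 160 ± 16.5 RPKM in hippocampus and 44.9 ± 12 RPKM in striatum, a difference of -1.85. Nfix had the same unsure power of 10 as mt-Rnr2, so its place is unsure too.

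Markers of spiny projection neurons were higher in striatum as a group. Of 20 markers shared by both pathways, 19 were tested, 16 were called higher in striatum and none higher in hippocampus, beside 20.8% of all genes called in that direction. Their median difference was 1.91. Ppp1r1b, which encodes the dopamine-regulated phosphoprotein DARPP-32, was at 41.8 to 69.5 RPKM in striatum and 3.00 to 5.50 RPKM in hippocampus, a difference of 3.26. Foxp1, a forkhead factor, averaged 91.0 against 23.0 RPKM. The 3 markers not called were Ptpn5, Adcy5 and Rasd2, with differences of 0.02, -0.10 and -0.24.

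Both pathways showed it. Of 10 direct-pathway markers, all tested, 7 were called higher in striatum and 1, Eya1, higher in hippocampus (1.19 against 5.37 RPKM). Drd1 was at 9.66 to 17.2 RPKM in striatum and at 0.865 to 1.31 RPKM in hippocampus, a difference of 2.68 (adjusted p = 3.98e-08, limma). All 9 tested indirect-pathway markers, of 10, were called higher in striatum. In the direct-pathway list 1 tested marker, and in the indirect-pathway list 2, stayed under 0.5 RPKM in every library of one tissue and passed the filter through the other alone. Penk, the precursor of enkephalin, was at 29.7, 63.1, 68.5, 45.1 and 40.4 RPKM in striatum and at 2.64 to 3.82 RPKM in hippocampus. Adora2a, the adenosine receptor of indirect-pathway neurons, averaged 35.6 ± 4.06 and 2.81 ± 0.406 RPKM (SD, n = 5). These tissues are mixtures of cells, so more cells of a type and more RNA per cell cannot be told apart, here or below.

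**Figure D3:**
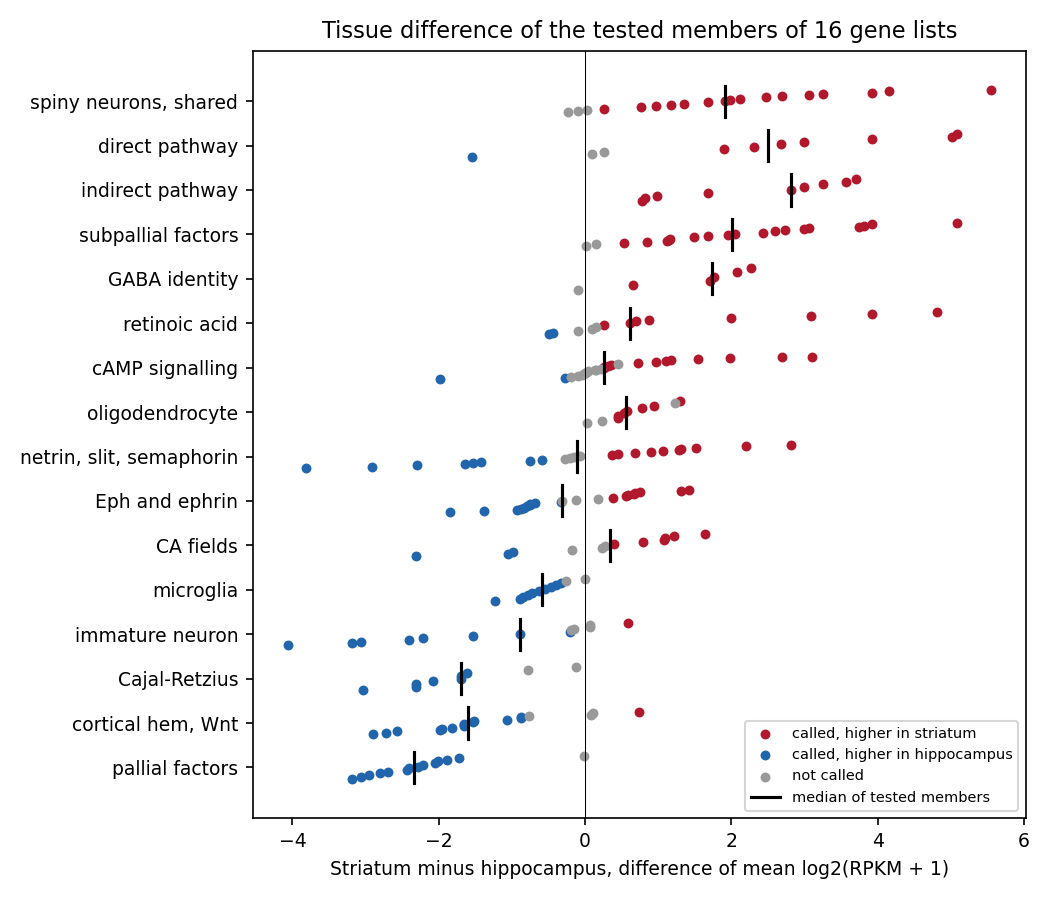
Difference of each tested member of 16 gene lists (horizontal axis, striatum minus hippocampus on the log2(RPKM + 1) scale), coloured by its call, with a bar at the list's median. Spiny neuron and subpallial lists lie to the right, pallial, cortical hem and Cajal-Retzius lists to the left, and guidance lists span both sides.

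Transcription factors of the subpallium and pallium parted by tissue. All 20 subpallial factors were tested, and 18 were called higher in striatum (all genes, 20.8%) and none higher in hippocampus. Their median difference was 2.00. In this list 3 factors stayed under 0.5 RPKM in every library of one tissue. They passed the filter through the other tissue alone and had to differ. Dlx5, a homeobox factor of the ganglionic eminences, averaged 47.1 ± 7.50 RPKM in striatum and 7.81 ± 0.660 RPKM in hippocampus. Gsx2, which acts upstream of the Dlx genes in lateral ganglionic eminence, was at 3.10 to 4.91 and 0.173 to 0.340 RPKM. Lhx8, a LIM factor of cholinergic neurons, varied widely within striatum, at 3.58, 7.46, 16.3, 3.16 and 4.10 RPKM, and stayed at or below 0.0216 RPKM in hippocampus. Of the 2 not called, Lhx6, a factor of interneurons, had a difference of 0.15.

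Of 20 pallial factors, 14 were tested, since 5 had an unsure decimal mark and 1 was too low, and 13 were called higher in hippocampus (all genes, 23.1%) with none higher in striatum. The median difference was -2.34. Neurod1, a helix-loop-helix factor of granule neuron differentiation, averaged 131 ± 35.7 RPKM in hippocampus and 14.7 ± 7.63 RPKM in striatum. Emx2, a homeobox factor required for the hippocampus to form, was at 30.5 to 52.3 RPKM in hippocampus and 3.82 to 8.81 RPKM in striatum, a difference of -2.69. Lhx2, a LIM factor of pallial progenitors, averaged 136 against 24.6 RPKM. Dmrt3 was at 5.13 to 8.21 RPKM in hippocampus and at or below 0.0665 RPKM in every striatal library. It therefore passed the filter through hippocampus alone and had to differ.

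Tbr1, a factor of early-born cortical projection neurons, was the tested pallial factor that was not called. It was at 44.5, 33.0, 22.2, 41.0 and 72.3 RPKM in striatum, and at 36.1 to 47.2 RPKM in hippocampus, so that the striatal libraries spread on both sides of the hippocampal ones. Neurod6, a factor of glutamatergic pallial neurons, was at 118, 93.2, 32.9, 37.0 and 282 RPKM in striatum replicates 1 to 5 and at 323 to 347 RPKM in hippocampus. Its difference was -2.02 (adjusted p = 0.00561, limma), and -2.46 without striatum replicate 5, which held the highest value. Rorb, a nuclear receptor of neocortical layer 4, was also highest in replicate 5, at 7.68 RPKM against 1.72 to 3.96 RPKM in the other striatal libraries. Hippocampus lay at 0.618 to 0.772 RPKM, a difference of 1.32, and of 1.07 without that replicate. Over the 9 neocortical markers with sure marks the mean of log2(RPKM + 1) ran from 3.42 to 4.28 in striatum and from 3.10 to 3.64 in hippocampus; 5 of the 9 were called higher in striatum and 2 higher in hippocampus. Foxp2, at 4.15, is 1 of these 5 and was also counted among the shared spiny neuron markers. Another is Lmo3 (0.79). It lost its call without replicate 1, 3 or 6 of hippocampus or replicate 1, 2, 3 or 5 of striatum. Its adjusted p then ran from 0.0626 to 0.103 (limma). The part of neocortical material in these values was not tested.

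Families of forebrain transcription factors split between the tissues. Of 50 members of such families, 43 were tested. Of these, 23 were called higher in striatum and 13 higher in hippocampus, beside 20.8% and 23.1% of all genes. The TALE homeobox factors Pbx3 and Meis1 had differences of 3.70 and 3.08, and the POU factor Pou3f4 had 3.09. Within the nuclear factor I family Nfia, Nfib and Nfix were all called higher in hippocampus, as were the LIM-only gene Lmo1 (-2.39) and the nuclear receptors Nr2f1 (-1.18) and Nr2f2 (-1.48).

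Genes of retinoic acid signalling leaned toward striatum. Retinoic acid is a ligand made from vitamin A that binds RAR and RXR nuclear receptors, and the RARs are targets as well as receptors of the pathway. Of 17 genes, 13 were tested, 8 were called higher in striatum and 2 higher in hippocampus, with a median difference of 0.61. Rxrg, a retinoid X receptor, was at 75.1, 90.8, 58.3, 63.3 and 50.1 RPKM in striatum and at 0.973 to 2.33 RPKM in hippocampus, a difference of 4.81 (SE 0.17, adjusted p = 7.66e-09, limma). Rarb was at 46.9, 50.8, 35.9, 38.7 and 33.6 RPKM in striatum and at 1.33, 1.62, 1.57, 1.74 and 2.58 RPKM in hippocampus, where replicate 6 was highest. Its difference was 3.93.

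Crabp1, a cytosolic retinoic acid-binding protein, averaged 71.2 ± 18.2 and 7.66 ± 2.92 RPKM (SD, n = 5). Rxra (-0.44) and the retinaldehyde dehydrogenase Aldh1a1 (-0.50) were higher in hippocampus. Aldh1a1 stood at 0.835 RPKM in striatum replicate 4 and at 0.0341 to 0.11 RPKM in the other striatal libraries. It lost its call without hippocampus replicate 1 (adjusted p = 0.0517, limma) and without both libraries whose codes begin with 7 (adjusted p = 0.0735, limma). The calls toward striatum numbered 7 without hippocampus replicate 6.

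The promoter of Rarb is shown because it holds the spaced repeat known as a retinoic acid response element, and Rarb is a receptor whose level differs between the tissues. The 250 bases before a start listed by RefSeq (GRCm38.p6, chr14:16575477-16575726, minus strand) are printed 5′ to 3′, with the match in capitals, a direct repeat of GTTCA with any 6 bases between the copies. Its first base lies 52 bases upstream of that start, which is inside the gene's full annotated span (16430839 to 17082331), so this is the start of some transcripts and not of the whole span.
Rarb: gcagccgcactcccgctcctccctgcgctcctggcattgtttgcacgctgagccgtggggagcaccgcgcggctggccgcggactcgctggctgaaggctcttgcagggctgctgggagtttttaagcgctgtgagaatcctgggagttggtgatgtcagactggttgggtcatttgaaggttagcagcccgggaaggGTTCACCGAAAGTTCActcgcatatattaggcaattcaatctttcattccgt
Searched on both strands, these letters occurred in 22 of 32851 promoter windows of the same length (0.067%). Of the 8 retinoic acid genes called higher in striatum, 6 had a window, and Rarb was the 1 with a match. The match is a description and was chosen because the element is known from this gene.

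Genes of the cortical hem and of Wnt signalling were higher in hippocampus. Of 20, 18 were tested, 14 were called higher in hippocampus and 1, Wnt7a, higher in striatum, with a median difference of -1.59. The ligand Wnt8b was at 4.80 to 6.52 RPKM in hippocampus and at or below 0.0437 RPKM in striatum. Wnt3a, a ligand of the hem needed for the hippocampus to grow, was at 2.54, 2.01, 2.56, 2.24 and 1.59 RPKM in hippocampus, while 4 striatal libraries stood at 0 and replicate 4 at 0.0369 RPKM. Rspo3, which amplifies Wnt signals, averaged 13.3 ± 1.48 and 0.996 ± 0.720 RPKM. The targets Axin2 (-1.07) and Lef1 (-1.66) were called in the same direction. The receptor subunit Lrp6 and the effector Tcf7l2 were not called, at 0.09 and 0.11. For 4 of the tested genes every striatal or every hippocampal library lay under 0.5 RPKM, so that they passed the filter through 1 tissue alone.

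Cajal-Retzius cells are early neurons of the marginal zone that secrete reelin. Of 10 of their markers, 9 were tested. Of these, 7 were called higher in hippocampus (all genes, 23.1%) and none higher in striatum, with a median of -1.70. In this list 1 tested marker stayed under 0.5 RPKM in every library of one tissue and passed the filter through the other alone. Trp73, the p53 relative of these cells, was at 10.4 to 15.9 RPKM in hippocampus and 0.466 to 1.09 RPKM in striatum. Reln was at 20.5, 22.1, 19.2, 54.6 and 24.8 RPKM in striatum and at 68.4 to 98.8 RPKM in hippocampus. Its difference was -1.61, and -1.87 without striatum replicate 4. Calb2, calretinin, was at 1.62 to 5.89 RPKM in 4 striatal libraries and at 48.3 RPKM in replicate 4, above all 5 hippocampal libraries (28.8 to 45.6 RPKM). Its difference was -2.31, -3.01 without that replicate, and its call was lost without both libraries whose codes begin with 7 (adjusted p = 0.0607, limma).

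Genes of immature neurons were called mostly higher in hippocampus. Of 13, all tested, 8 were called higher in hippocampus and 1, Sox4, higher in striatum. The helix-loop-helix factors Nhlh1 and Nhlh2 belong here, and their promoters are shown because both genes differ in the same direction. Capitals mark CAGATG, a form of the E-box that such factors bind. Nhlh1 lies on chr1:172057597-172057846, minus strand, and Nhlh2 on chr3:102009895-102010144, plus strand, both from RefSeq, GRCm38.p6, 5′ to 3′. For Nhlh2 the listed start lies past the first base of the gene's annotated span, at 102010111, so the end of its window overlaps that span.
Nhlh1: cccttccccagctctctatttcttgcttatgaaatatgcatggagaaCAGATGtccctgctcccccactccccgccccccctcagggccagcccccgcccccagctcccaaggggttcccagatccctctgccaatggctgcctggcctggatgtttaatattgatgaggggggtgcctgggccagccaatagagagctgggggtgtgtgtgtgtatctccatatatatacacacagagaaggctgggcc
Nhlh2: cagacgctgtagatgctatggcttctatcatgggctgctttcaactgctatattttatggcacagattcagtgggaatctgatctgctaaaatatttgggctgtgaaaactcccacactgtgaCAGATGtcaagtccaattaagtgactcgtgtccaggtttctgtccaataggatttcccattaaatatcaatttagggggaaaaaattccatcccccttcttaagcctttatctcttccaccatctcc
On either strand CAGATG occurred in 14.4% of the 32851 windows, and in those of 2 of 6 pallial helix-loop-helix genes searched (Neurod1, Neurod4, Neurod6, Neurog2, Nhlh1 and Nhlh2). Nhlh1 was at 9.00 to 16.9 RPKM in hippocampus and 0.265 to 1.04 RPKM in striatum, a difference of -3.06. The 4 members not called were Dcx, Stmn2, Tubb3 and Sox11, with differences of -0.19, -0.15, 0.07 and 0.07.

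Genes of GABAergic identity were higher in striatum, 5 of 6 tested, with a median of 1.73. Gad1, 1 of the enzymes that make GABA, was at 52.3 to 104 RPKM in striatum and at 20.0 to 22.5 RPKM in hippocampus, a difference of 1.71. Gad2, the other, differed by 2.26, and the vesicular transporter Slc32a1 by 2.08. The astrocytic GABA transporter Slc6a11 was not called (-0.10). Of 12 interneuron markers, 10 were tested, 2 were called higher in striatum and 3 higher in hippocampus, beside 20.8% and 23.1% of all genes. Those higher in striatum were the peptide genes Npy, at 136 ± 34.7 and 21.2 ± 1.06 RPKM, and Sst, at 121 ± 68.1 and 43.9 ± 5.87 RPKM (SD, n = 5). The 3 higher in hippocampus were Calb2, Htr3a (-0.49) and Maf (-0.38). Maf lost its call without both libraries whose codes begin with 7 (adjusted p = 0.0613, limma). In that setting the list's calls toward hippocampus numbered 1.

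Of 7 genes of cholinergic neurons, 6 were tested, 5 were called higher in striatum and 1, Zic4, higher in hippocampus. The vesicular acetylcholine transporter Slc18a3 was at 0.977, 1.74, 3.48, 0.857 and 1.11 RPKM in striatum and at or below 0.108 RPKM in hippocampus. All 5 genes called higher in striatum stayed under 0.5 RPKM in every hippocampal library, so they passed the filter through striatum alone and had to differ. Striatum replicate 3 held the highest value of both Slc18a3 and Lhx8.

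The vesicular glutamate transporter Slc17a7 was not called over all libraries (difference -1.52, adjusted p = 0.0762, limma). It was at 5.87, 3.28, 2.45, 64.4 and 7.12 RPKM in striatum replicates 1 to 5 and at 19.9 to 28.0 RPKM in hippocampus. Replicate 4 of striatum thus lay above all hippocampal libraries, and the 4 others below all of them. Without replicate 4 the difference was -2.25 (adjusted p = 8.16e-06, limma). The glutamatergic list had 5 genes, all tested, of which 2, Slc1a1 and Slc17a6, were called higher in hippocampus. Slc17a6 (-0.65, adjusted p = 0.0394, limma) lost its call when any 1 library other than striatum replicate 4 was left out, with adjusted p from 0.0556 to 0.0947 (limma).

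Receptors and second-messenger genes were divided member by member. Among receptors for dopamine, opioids and cannabinoids, 6 of 11 were tested. Of these, 5 were called higher in striatum, beside 20.8% of all genes. The 1 called higher in hippocampus was the cannabinoid receptor Cnr1 (42.4 ± 15.3 and 102 ± 5.8 RPKM). In this list 2 tested genes stayed under 0.5 RPKM in every library of one tissue and passed the filter through the other alone. The mu opioid receptor Oprm1 was at 1.29 to 2.89 RPKM in striatum and at or below 0.123 RPKM in hippocampus. Of 25 genes of cAMP signalling, all tested, 12 were called higher in striatum and 2 higher in hippocampus. Of all genes, 20.8% and 23.1% were called in these directions. The median difference of the list was 0.27. The phosphodiesterase Pde7b had the largest difference, 3.10, followed by Gnal, the G protein alpha subunit that couples Drd1 and Adora2a to adenylyl cyclase (2.70). Pde1a went the other way, at 3.18 ± 1.07 RPKM in striatum and 15.2 ± 1.23 RPKM in hippocampus, while Pde1b of the same subfamily was called slightly higher in striatum (0.26). Adcy5 and Gnas were not called.

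Of 18 ionotropic glutamate receptor subunits, all tested, 5 were called higher in striatum and 3 higher in hippocampus, a share near the 43.9% of all genes. None of these calls reached 1, with a median of 0.02. The kainate subunits Grik3 (0.99) and Grik4 (-0.98) lay at opposite ends, and the NMDA subunit Grin2a was at 0.188 to 0.524 RPKM in striatum and 1.19 to 1.71 RPKM in hippocampus. Of 8 metabotropic receptors, 7 were tested, with 4 called higher in striatum and 1, Grm7, higher in hippocampus. Grm7 (-0.49, adjusted p = 0.0267, limma) lost its call without replicate 1, 3 or 6 of hippocampus or replicate 1 or 2 of striatum, with adjusted p from 0.052 to 0.0629 (limma). Of 16 GABA-A subunits, 12 were tested, with 4 called higher in striatum and 3 higher in hippocampus, beside 20.8% and 23.1% of all genes. Gabra2 was at 8.46 to 15.9 RPKM in striatum and 50.1 to 53.1 RPKM in hippocampus, a difference of -2.06.

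Axon guidance genes were called in both directions within the same families. Of 24 netrins, slits, semaphorins and their receptors, 22 were tested. Of these, 10 were called higher in striatum and 8 higher in hippocampus, beside 20.8% and 23.1% of all genes. The slit receptor Robo2 was at 59.9 to 76.7 RPKM in striatum and 7.88 to 10.4 RPKM in hippocampus, a difference of 2.82, while the ligands Slit2 (-1.53) and Slit3 (-2.29) were higher in hippocampus. The ligand Ntn1, netrin 1, averaged 20.1 ± 5.23 and 3.48 ± 0.256 RPKM, and its receptor Dcc averaged 12.9 ± 2.26 and 42.1 ± 6.13 RPKM (SD, n = 5). Among semaphorins, Sema3a (1.29) and Sema3f (1.52) were higher in striatum and Sema3c (-2.91) was higher in hippocampus, as was the semaphorin receptor Nrp1.

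Of 22 Eph receptors and ephrins, 21 were tested. Of these, 8 were called higher in striatum and 10 higher in hippocampus, beside 20.8% and 23.1% of all genes. Epha8 was at 8.41 to 13.2 RPKM in striatum and 2.92 to 4.63 RPKM in hippocampus (difference 1.43). Epha6 was at 0.35 to 1.87 RPKM in striatum and 4.07 to 6.24 RPKM in hippocampus (difference -1.85). The 8 calls toward striatum were 6 without hippocampus replicate 6. Type II cadherins, adhesion proteins that mark brain divisions, leaned toward striatum, with 7 of 12 called there and 1, Cdh11, in hippocampus (19.4 ± 2.61 and 31.3 ± 2.74 RPKM). Cdh8 averaged 39.6 ± 10.1 and 17.4 ± 1.83 RPKM.

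Markers of hippocampal subfields were called in both directions. Of 10 dentate granule cell markers, 5 were tested, 2 were called higher in hippocampus (Prox1 and Stxbp6) and 2 higher in striatum (Calb1 and Plk5). Prox1, a homeobox factor of granule cells, was at 33.0, 17.2, 16.6, 16.3 and 27.7 RPKM in hippocampus and at 2.28 to 8.26 RPKM in striatum. The dentate markers C1ql2, Dsp, Lct, Tdo2 and Trpc6 were under the filter. Of 12 CA field markers, all tested, 6 were called higher in striatum and 3 higher in hippocampus, beside 20.8% and 23.1% of all genes. Nr3c2, the mineralocorticoid receptor, was at 10.2 to 14 RPKM in hippocampus and 0.847 to 2.52 RPKM in striatum (difference -2.31), whereas Mef2c was at 37.9 to 107 RPKM in striatum and 15.8 to 26.8 RPKM in hippocampus (difference 1.63).

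Lists of non-neuronal cells were counted in the same way. Of 12 microglial markers, 10 were called higher in hippocampus (all genes, 23.1%) and none higher in striatum, with a median of -0.59. The summed level of the list ran from 34.1 to 62.4 RPKM in striatum and from 68.3 to 80.7 RPKM in hippocampus. The fractalkine receptor Cx3cr1 averaged 3.00 ± 0.394 and 5.6 ± 0.435 RPKM. Of 12 endothelial and pericyte markers, 11 were tested and 6 were called higher in hippocampus, none higher in striatum; the tight junction gene Cldn5 averaged 38.2 and 51.0 RPKM.

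Of 14 markers of radial glia and astrocytes, 13 were tested. Of these, 7 were called higher in hippocampus and 2 higher in striatum, beside 23.1% and 20.8% of all genes. The matrix protein Tnc was at 30.3 to 38.1 RPKM in striatum and 92.1 to 104 RPKM in hippocampus, while Aldh1l1 averaged 16.5 ± 5.33 and 6.34 ± 1.12 RPKM. Fabp7, a lipid-binding protein of radial glia, was at 583 to 653 RPKM in 4 striatal libraries, 1636 RPKM in striatum replicate 4 and 603 to 811 RPKM in hippocampus. Without replicate 4, 10 markers were called higher in hippocampus.

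Of 12 oligodendrocyte markers, 10 were tested. Of these, 7 were called higher in striatum (all genes, 20.8%) and none higher in hippocampus, with a median of 0.56. The myelin gene Mbp averaged 6.46 ± 0.501 and 3.36 ± 0.248 RPKM. Sox10, a factor of the lineage, was at 23.3 RPKM in striatum replicate 4, at 3.27 to 4.84 RPKM in the other striatal libraries and at 1.74 to 2.07 RPKM in hippocampus. Its difference was 1.3, and 0.86 without replicate 4. Choroid plexus markers were called higher in hippocampus for 4 of 5 tested of 10, and for 2 without striatum replicate 2 or without hippocampus replicate 3. Of 18 cell-cycle genes 16 were tested and 4 were called higher in hippocampus, a share near the 23.1% of all genes. The cell-cycle calls numbered 8 without striatum replicate 4, and 2 without replicate 1 or 5 of striatum or replicate 1 or 3 of hippocampus. Of the 13 listed protein-coding genes of the mitochondrial genome 3 were called higher in striatum, beside 20.8% of all genes. That count was 1 without hippocampus replicate 3, 5 without hippocampus replicate 4, and 2 without replicate 1 or 2 of hippocampus or replicate 4 or 5 of striatum. It was 1 under quantile normalization and 1 under voom. The part of cell composition in the neuronal differences was not tested.

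**Figure D4:**
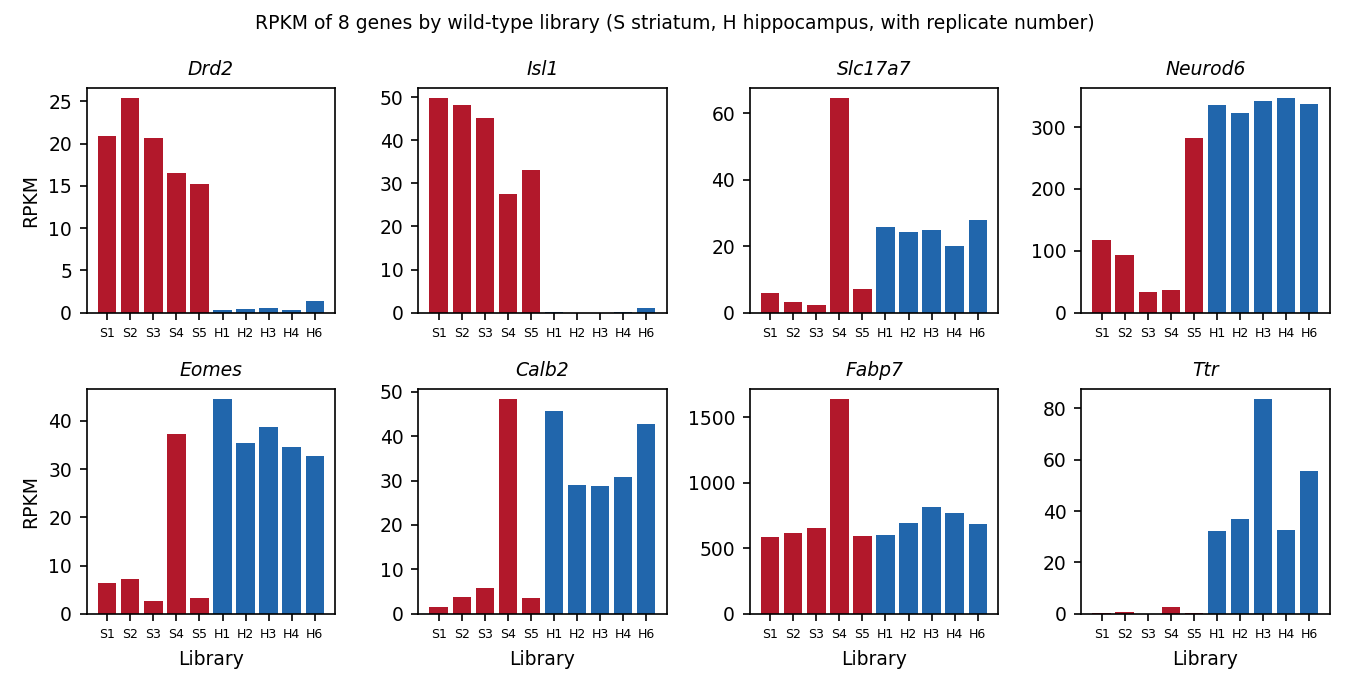
RPKM of 8 genes in each wild-type library, as bars from 0 (S striatum, H hippocampus, with the replicate number; 1 library per bar). Striatum replicate 4 stands above the other striatal libraries for Slc17a7, Eomes, Calb2 and Fabp7, and striatum replicate 5 for Neurod6.

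Of the Ikaros family, to which Helios belongs, 3 of 4 tested genes were called higher in striatum. Ikzf1, which encodes Ikaros, lies on chromosome 11 and was at 28.3, 21.8, 13.7, 12.6 and 14.6 RPKM in striatum and at 0.273, 0.446, 0.282, 0.348 and 0.930 RPKM in hippocampus. Its difference was 3.67 (SE 0.21, adjusted p = 1.77e-07, limma), or 3.78 without hippocampus replicate 6. Ikzf2 was at 3.66, 2.81, 2.36, 2.09 and 2.31 RPKM in striatum and at 1.32, 1.58, 1.33, 1.61 and 0.782 RPKM in hippocampus. The tissues did not overlap, with a difference of 0.65 (SE 0.13, adjusted p = 0.00227, limma), or 0.55 without hippocampus replicate 6. Ikzf4, which encodes Eos, averaged 9.23 ± 1.63 and 6.40 ± 0.262 RPKM, and Ikzf5 averaged 10.1 ± 0.627 and 10.8 ± 0.226 RPKM. Ikzf3 was at or below 0.0133 RPKM in every library. In an exact two-sided permutation test of mean RPKM, p was 0.00794 for Ikzf1, Ikzf2 and Ikzf4, the smallest the 252 splits allow, and 0.0556 for Ikzf5. Ikzf5 was not called over all libraries (-0.09, adjusted p = 0.145, limma) and was called without striatum replicate 1 (-0.12, adjusted p = 0.0438, limma).

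The tissue differences were measured again in the libraries labelled Helios -/-. These are different libraries, but decimal marks were placed with all libraries of a tissue in view, so the values are not fully independent. Among them, the library labelled hippocampus Helios -/- replicate 5 went against its label, with Ikzf2 at 1.43 RPKM, while the other 4 hippocampal libraries lay between 0.353 and 0.785 RPKM. Of the 770 called genes with a difference of at least 1, 703 were tested there, 702 had the same direction and 683 were also called (97.2%), beside 29.0% of the 14478 genes tested in those libraries. The exception was Grem1, a BMP antagonist, at -1.05 in wild type and 0.08 in the others. Of all 6597 called genes, 6266 were tested, 93.4% had the same direction and 55.3% were also called. Replicates 8 and 10 of hippocampus in that group were then left out, a choice made after the data were seen; replicate 10 carries the tissue tag striatum. Without them the shares were 98.2% and 71.5%, beside 38.7% of all genes called. Replicate 7 of hippocampus in that group was kept. Its recovered reads came to 26739315, above the library size of 20146901 implied by its RPKM values. Recovered reads also exceeded the implied size in every striatal library labelled Helios -/-.

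**Figure D5:**
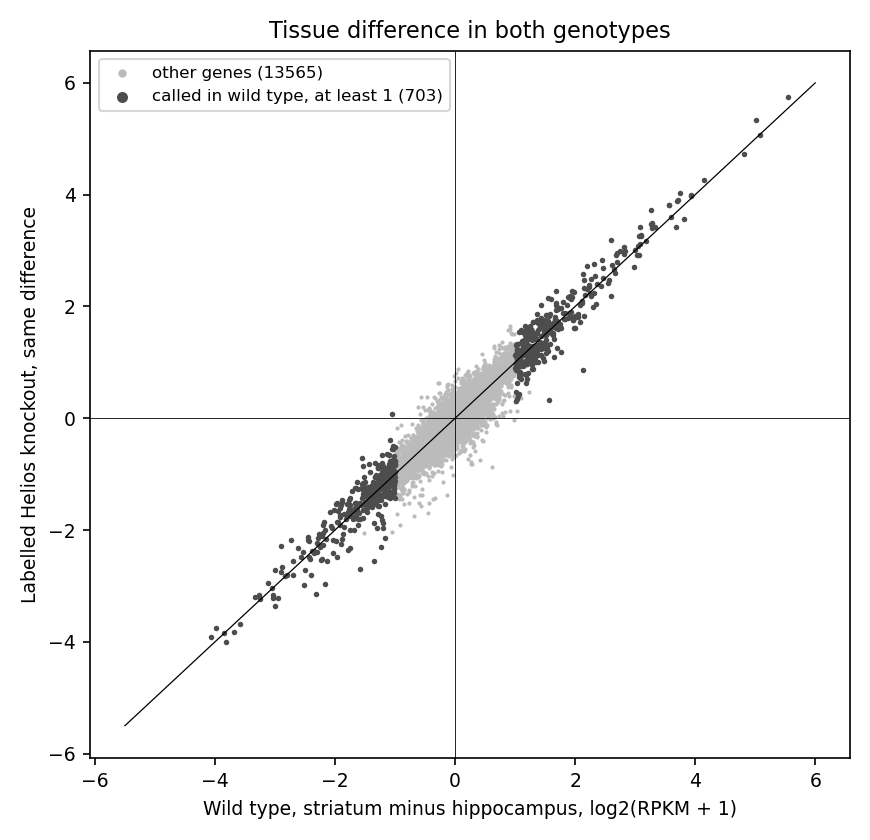
Striatum minus hippocampus in wild-type libraries (horizontal axis) and in libraries labelled Helios knockout (vertical axis), on the log2(RPKM + 1) scale, 1 point per gene tested in both. Dark points are the 703 genes called in wild type with a difference of at least 1; the line marks equal differences, and 702 of the 703 have the same sign.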

How the data were processed

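Per the labels' protocols, stranded TruSeq mRNA libraries were sequenced on a NextSeq500 as 75 bp single reads. Per the submitters' processing notes, whose tools have no stated role or order, the build was mm10 and the list names BWA 0.7.4, featureCounts, HTSeq, cutadapt 1.3, SAMtools, DESeq2, bcl2fastq 2.15.0, FastQC 0.11 and CASAVA 1.8.2. The authors deposited RPKM for 27179 genes and 20 libraries, and their own comparison tables, which are not used here.

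No decimal mark was present in 51.1% of the deposited values, namely those at or above 1. Library sizes were estimated from values below 1, and a mark was set so that values became whole reads (within 0.001) with 1 gene length over all libraries, near the other libraries of its tissue. The tissues were scored separately. Marks whose odds over the next place were under 20 to 1 were called unsure, and 197 genes with such a mark in a wild-type library were left out, 178 of which passed the filter. In 771 tested genes the power of 10 common to all libraries was unsure. This keeps the ratios between libraries and the direction of a difference. It can change the level, the size of the log2(RPKM + 1) difference, its adjusted p and whether the gene passes the filter. The method was tested on simulated data for 23166 genes: 98.2% of missing marks came back correctly, and the libraries of a gene lay on 1 scale in 100% of genes with no unsure wild-type mark. In 1.71% of those genes the common level was off by a power of 10, and in 0% of those also sure in level. In the same simulation of this comparison, 15229 genes were tested, 5 genes without a difference were called, and simulated differences of 1, 2 and 4 were called in 98.5%, 100% and 100% of 67, 68 and 62 genes. The simulated reads had the same dispersion in all genes, few genes differed, and no library stood apart from its tissue. Marks of a library far from the others of its tissue were therefore not tested.

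limma 3.58.1 (trend and robust) in R 4.3.3 compared log2(RPKM + 1), a pseudocount of 1, in genes reaching 0.5 RPKM in 5 or more of the 10 libraries, with no covariate. The planned test fitted this unit. Fold changes of low genes are understated on this scale. Exact permutation tests used scipy 1.17.1. Entrez identifiers were matched to RefSeq, then to GENCODE, both on GRCm38, giving 25293 genes a symbol. Overlapping and near-identical genes may share reads. The labels name no animals, and p-values therefore reflect only how these libraries vary, which may be technical. None of the 20 replicate pairs agreed within counting noise (smallest chi-square 9.61 per degree of freedom).

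The comparison, the 38 lists (482 genes) and the rule for named genes were chosen with earlier results of these data known. Named genes are the 10 with the largest difference per direction among called genes with sure marks whose groups do not overlap and whose higher mean is at least 1 RPKM, the 5 most abundant per direction with a difference of at least 1, up to 4 per list and direction, and the Ikaros family. Other list members are named with their values. Values of 5 genes are not reported here, though counts include them. Alternatives covered the pseudocount, the filter, the scaling, unsure marks, voom on recovered reads, all 20 libraries, a replicate block and each library left out.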

Additional observations from a re-analysis of the deposited data

Results flagged for a closer look

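Over 142 groups of 5 values, of list means and of single genes, 13 held 1 library separated from the others by more than 0.71 of the whole range (Dixon's 95% value), where chance gives about 5% of groups. Striatum replicate 4 accounted for 7 of them and hippocampus replicate 6 for 3. The groups share libraries and some genes, so these flags are not independent. The 5% rate is therefore no test of the count of 13.

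In striatum replicate 4 the mean log2(RPKM + 1) of the cortical hem and Wnt list was 1.89, against 1.40 to 1.49 in the other striatal libraries. That of the cell-cycle list was 3.95 against 3.33 to 3.49, of the choroid plexus list 0.879 against 0.445 to 0.551, and of the housekeeping list 4.82 against 4.55 to 4.61. In RPKM, Ttr stood at 2.67 against 0.0891 to 0.833, Nrp1 at 15.7 against 8.13 to 9.97, and Hopx at 8.69 against 1.93 to 2.54.

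In hippocampus replicate 6, Isl1 stood at 1.05 RPKM against 0.0339 to 0.0711 in the other hippocampal libraries, Drd2 at 1.42 against 0.303 to 0.552, and Ikzf1 at 0.930 against 0.273 to 0.446.

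The mean of the radial glia and astrocyte list was 5.04 in hippocampus replicate 2, against 5.14 to 5.17. Nr4a3 stood at 58.6 RPKM in hippocampus replicate 4, against 68.3 to 71.2, and Grp at 12.4 RPKM in striatum replicate 5, against 0.851 to 1.93.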

How the results depend on the processing

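The 6597 calls became between 5623 and 8149 with each library left out in turn, the 770 calls of at least 1 between 737 and 851, and the 284 called list members between 264 and 308. A pseudocount of 0.1 gave 1279 calls of at least 1 (612 higher in striatum, 667 higher in hippocampus), and voom on recovered reads gave 1378 (611 and 767); both scales shrink low genes less by construction. Under these 2 settings 770 and 767 of the 770 genes kept their call and direction. Voom placed 40.3% of its 6580 calls in striatum, against 47.5%. It took the recovered reads as its library sizes. Of 177 named genes, 153 kept direction and call under every setting in which they were tested. Actb reversed under quantile normalization, from 0.17 to -0.0008 (adjusted p = 0.992, limma). Replicates 1 to 4 share numbers and codes between tissues. The deviations of same-numbered libraries correlated at 0.101, 0.117, 0.027 and 0.148, and those of libraries with other numbers between -0.152 and 0.045. The same-numbered values were all positive but not all above 0.1, and the main test used no pairing. Whether same-numbered libraries share an animal or a batch was not tested. With the replicate block 4903 genes were called and 783 by at least 1, against 5442 and 783 in the same 8 libraries unblocked. Depth limits genes of few reads most. A gene under 0.5 RPKM in every library of 1 tissue was tested only if every library of the other tissue reached 0.5 RPKM.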
